A study of Mus musculus with 5 samples.

Results

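The fragments described here are stretches of mouse DNA that were methylated in a mixed population of CD8+ T cells and in one T-cell clone, and had lost part of that methylation in a second clone. They were chosen by their methylation level, the share of methylated calls among all CpG calls of a fragment in a library. A fragment was taken when it had at least 10 molecules with a call in each of the 3 libraries, stood at 90% or more in the population and in one clone, and stood at 65% or less in the other clone, which is called the losing clone below. This gave 577 fragments, 307 low in clone 1 and 270 low in clone 2, among 75936 fragments at 90% or more in the population and 161264 with enough molecules in all 3 libraries.

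The cells were cytotoxic (CD8+) T lymphocytes from mice of the inbred strain C57BL/6. Naive T cells from spleen were cultured with the growth factor IL2, and single CD8+ cells were sorted and grown into clones. Clone 1 and clone 2, each the offspring of a single founder cell, are labelled with 15 cell divisions, and each has 2 replicates that share 1 deposited file. The original, non-clonal population is 1 sample. With 1 pooled library per clone no spread between replicates could be had, so each test below compares libraries and not conditions, and each clone stands for 1 founder. Identity as CD8+ cells rests on the labels, since methylation calls on numbered fragments hold no marker to check it against.

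In mammals DNA methylation sits mostly on the cytosine of CpG dinucleotides. The dinucleotide reads the same on both strands, and after replication the enzyme DNMT1 copies the state of the old strand onto the new one, so a methylated CpG is passed on to both daughter cells when copying succeeds. Where copying fails, or where TET enzymes oxidise the methyl group, a CpG can become unmethylated, and the unmethylated state can then be inherited in turn. A diploid cell carries a maternal and a paternal copy of each autosomal CpG, and in an inbred strain bisulfite reads do not tell these copies apart.

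DNA was cut with MspI, which recognises CCGG in either methylation state, so every fragment begins and ends at a CpG. Fragments longer than the size selection allowed were removed, molecules were joined to tags, and bisulfite was used to tell unmethylated cytosines from methylated ones. The libraries of clone 1, clone 2 and the population had a call on 7013054, 5567534 and 5588357 molecules. The files number the fragments and give no coordinates, so the members are named by number, and no gene, promoter or other annotation was assigned to them. Within a fragment, reads of the plus strand began at the first CpG and reads of the minus strand at the last CpG.

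The members sat at an intermediate level in the losing clone and were rarely empty of methylation. The median level was 58.8% in clone 1 (range 0 to 65%, n = 307 fragments), against 96.0% in clone 2 and 93.8% in the population for the same fragments. For the 270 members low in clone 2 it was 59.0% (range 3.85 to 65%), against 96.1% in clone 1 and 93.6% in the population. Above 50% lay 228 of the 307 members low in clone 1 and 208 of the 270 low in clone 2, while 4 and 2 of them lay at 20% or less. A member was backed by a median of 25 molecules in clone 1 where clone 1 was low and 20 in clone 2 where clone 2 was low, with at most 65 and 52. These levels chose the members and are given as a description.

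**Figure D1:**
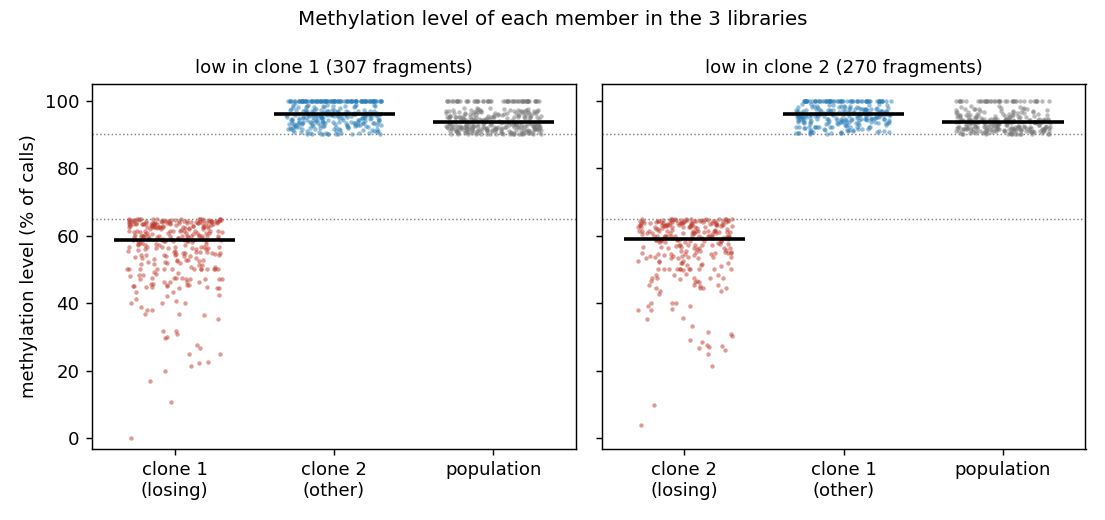
Methylation level of each member, in percent of CpG calls, in the losing clone, the other clone and the population, for members low in clone 1 (left) and in clone 2 (right). Each point is 1 fragment, black bars are medians, and dotted lines mark 65% and 90%. The losing clone's points crowd just under 65%, with medians of 58.8% and 59.0%.

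Loss of this size was rare in both clones. Of the 75936 fragments at 90% or more in the population, 510 (0.672%) stood at 65% or less in clone 1 and 455 (0.599%) in clone 2. Of these, 30 were low in both clones, 5.88% of the 510 and 6.59% of the 455, and the rule leaves them out. Another 86.1% in clone 1 and 87.3% in clone 2 stood at 90% or more. At the edge of the rule, fragment 166974 entered with 26 of 40 calls methylated in clone 1, and fragment 1122578 missed it with 28 of 43 (65.1%). In clone 2, fragment 340921 entered with 13 of 20 calls and fragment 59440 missed it with 43 of 66 (65.2%). On the side of the population, fragment 405625 entered at 90.0% and fragment 878790 missed at 89.9%. On the side of the other clone, fragment 427213 entered at 90.0% and fragment 108825 missed at 89.9%.

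Libraries were also compared fragment by fragment with Fisher's exact test (two-sided), counting a molecule as methylated where over 50% of its read CpGs were, and p-values were adjusted by Benjamini-Hochberg over every fragment tested. Called fragments passed 0.05 after adjustment and differed by 20 points or more. Of the 307 members low in clone 1, 140 were called lower in clone 1 than in the population, against 0.69% of all 197730 fragments tested. Of the 270 low in clone 2, 102 were called lower in clone 2, against 0.532% of 163766. Between the clones, 183 of the 307 were called lower in clone 1 than in clone 2, against 2.06% of all fragments, and 178 of the 270 lower in clone 2 than in clone 1, against 1.71%. The rule used these contrasts, so nothing is read from the counts.

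A few members had lost nearly all methylation in the calls read. Fragment 1218479 had 0 of 15 calls methylated in clone 1, against 29 of 32 in clone 2 and 20 of 22 in the population. In fragment 823210, 1 of 26 calls was methylated in clone 2, against 17 of 18 in clone 1 and 14 of 15 in the population. In fragment 746389 it was 3 of 30 in clone 2, against 23 of 23 in clone 1 and 20 of 21 in the population. Each of these 3 held 2 CpGs, and in each the losing clone lay far below both other libraries. They were picked as the lowest members after their values were seen.

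Members were short in CpGs. Fragments of 2 CpGs made up 51.1% of the members (295 of 577) against 17.2% of the 75936 fragments methylated in the population. Fragments of 3 CpGs made up 26.7% against 19.1%, fragments of 4 CpGs 10.7% against 17.3%, and fragments of 7 or more CpGs 2.43% against 22.3%. As a rate, 2.26 of every 100 methylated fragments of 2 CpGs were members, 0.472 of every 100 with 4 CpGs and 0.0826 of every 100 with 7 or more. The last rate differed between the clones, at 0.0118 in clone 1 (2 members) and 0.0708 in clone 2 (12 members). With fewer CpGs a fragment has fewer calls, and 1 lost CpG moves its level further; their part in this order was not tested.

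Within a member the loss usually spared some of the CpGs. Of the 1309 CpGs with at least 5 calls in both the losing clone and the population, 84 stood at 10% or less in the losing clone, 409 above 40% and up to 60%, and 339 above 90%. In the other clone 1093 of 1255 CpGs and in the population 986 of 1309 stood above 90%, and none stood at 40% or less. The rule holds the members at 90% or more in both these libraries. Among the 399 members with at least 2 measured CpGs, 358 had CpGs both below and above 65% in the losing clone, and 41 had all measured CpGs at 65% or less. Exactly 1 measured CpG was low in 243 of the 399. These counts split CpGs at the rule's own 65% on as few as 5 calls. Counting error alone can put a CpG above it where the loss was even, and its share was not tested. A CpG at 20% or less was found in 112 members, and 104 of these also held a CpG at 80% or more.

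**Figure D2:**
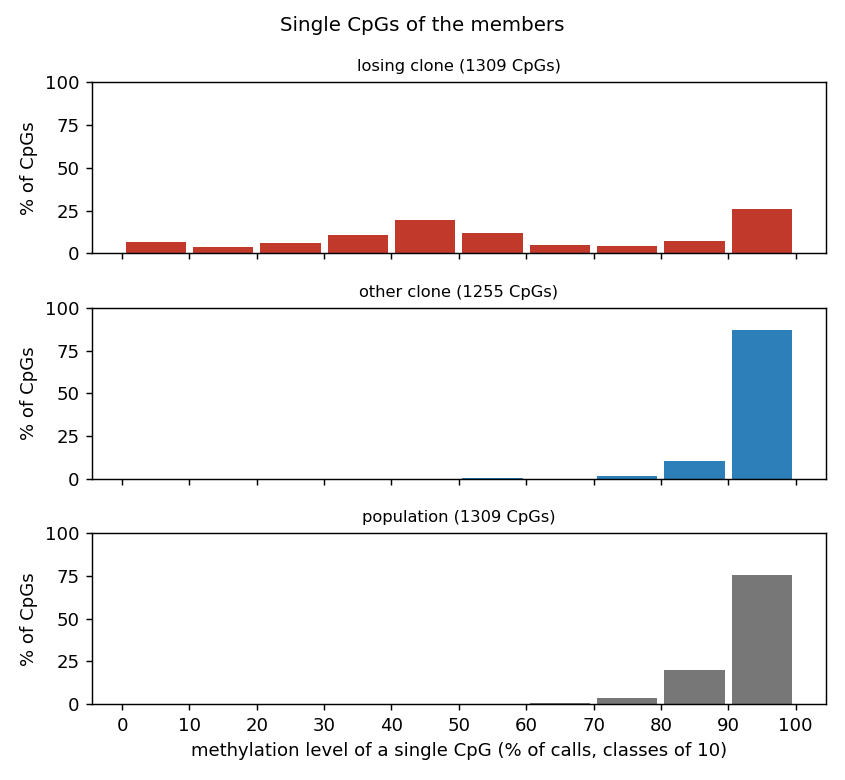
Share of the members' single CpGs (y axis, percent) in classes of methylation level of 10 percentage points (x axis) in the losing clone, the other clone and the population. Bars pool members of both clones. The losing clone has CpGs near 0%, a broad group around 50% and a group above 90%, while the other 2 libraries have nearly all CpGs above 80%.

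Low CpGs lay side by side in some members and apart in others. At least 2 low CpGs and a higher one were measured in 115 members. With 3 measured CpGs, where most arrangements are side by side, 36 of 40 had the low ones in 1 block. With 4 or more, 42 of 75 had 1 block and 33 had several, with higher CpGs between them. In members with 3 or more CpGs, low CpGs were more frequent inside the fragment than at its ends. In the losing clone, 73.8% of 473 interior CpGs stood at 65% or less, against 39.1% of 215 first CpGs and 37.4% of 187 last CpGs. Interior CpGs are read from both strands and weigh more in the level that chose the members, with a median of 21 calls against 13 at the ends in the losing clone. The rule thus favours fragments with low interior CpGs, and the share this adds was not tested.

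In members of 2 CpGs the loss was usually at one end. Both ends had at least 5 calls in the losing clone in 153 such members, and in 100 of them (65.4%) the ends differed by at least 50 percentage points. The lower end had a median level of 37.5% and the higher end 93.3%. In 16 of the 153 both ends stood at 65% or less. The lower end was the first CpG in 39 and the last in 21 of the 60 low in clone 1, and the first in 11 and the last in 29 of the 40 low in clone 2. In the other clone 0 of 165 and in the population 0 of 202 of these fragments had a gap of that size. The rule holds them at 90% or more in both these libraries, which leaves little room for such a gap. Fragment 803142 shows the extreme case, with 0 of 22 calls methylated at its first CpG and 8 of 8 at its last CpG in clone 1, against 25 of 25 and 13 of 14 in clone 2 and 18 of 20 and 16 of 17 in the population. The mirror image was fragment 762730, with 13 of 14 calls at its first CpG and 2 of 14 at its last CpG in clone 2, against 26 of 28 and 17 of 17 in clone 1 and 11 of 11 and 8 of 8 in the population. Fragments 803142 and 762730 were singled out after their values were seen.

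**Figure D3:**
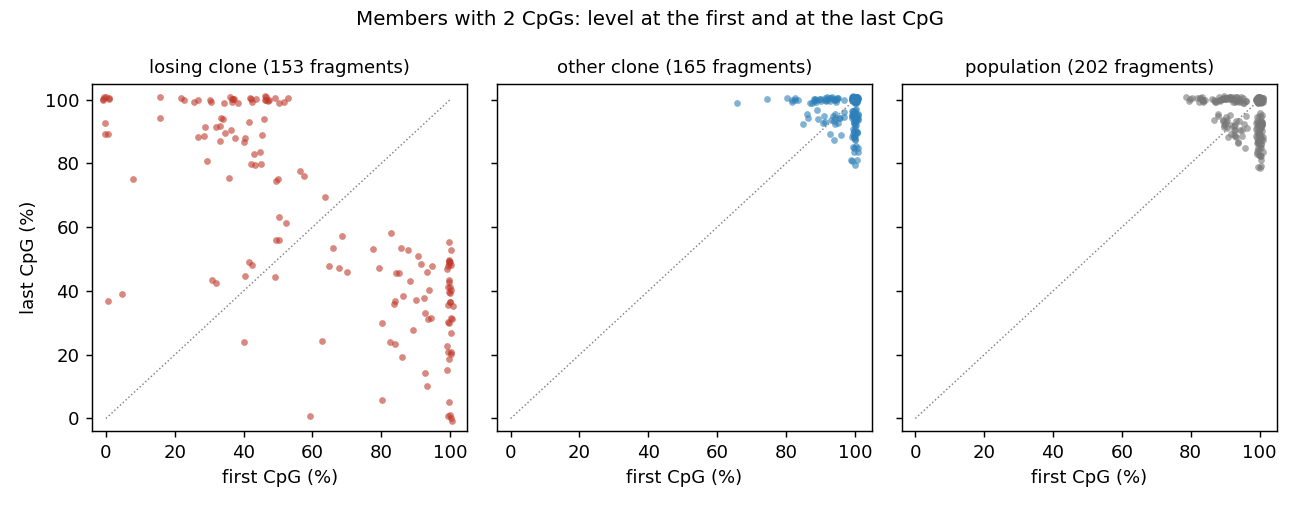
Level at the first CpG (x axis, percent of calls) and at the last CpG (y axis) of members with 2 CpGs, in the losing clone, the other clone and the population. Each point is a fragment with at least 5 calls at both ends, shifted by up to 1 point so that equal values show. In the losing clone most points follow the top and right edges, with 1 end high and the other low. In 16 of 153 both ends are at 65% or less. In the other 2 libraries both ends are high.

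Such unevenness was also common outside the members. Members of 2 CpGs at 35 to 65% in the losing clone had a gap of at least 50 points in 62.8% of 86 in clone 1 and 68.4% of 57 in clone 2. Among all fragments of 2 CpGs at 35 to 65% in a library, members included, it was seen in 60.1% of 932 in clone 1. In clone 2 it was 63.8% of 766, and in the population 37.4% of 884. Fragments at 35 to 65% in all 3 libraries cannot be members. Of these, 62.9% of 124 had such a gap in clone 1, 62.0% of 108 in clone 2 and 48.8% of 123 in the population.

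The strand of a molecule decides which end is read, so the same unevenness appears as a difference between strands, which the rule pooled. By Fisher's exact test between the strands of 1 library, with at least 5 molecules on each, 26 of 199 members were called in clone 1 where clone 1 was losing, against 0.92% of all 183197 fragments tested in clone 1. In clone 2, 12 of 143 were called where clone 2 was losing, against 0.715% of 137179. In the clone that kept its methylation 0 of 158 and 0 of 201 were called, and in the population 0 of 226 and 0 of 212, against 0.0637% of all fragments in the population. Fragments at an intermediate level have room for such a difference and fully methylated ones have little. Of the called members, 29 held 2 CpGs (19 of 93 tested in clone 1 and 10 of 60 in clone 2).

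An independent reading of the lost end came from the neighbouring fragment. Consecutive fragment numbers were taken to share an MspI site, so that the last CpG of one fragment and the first CpG of the next are the 2 strands of the same CpG, read on different molecules. The sources do not state this, and it is read from the levels. Over all fragments, levels at these 2 readings lay on average 5.34 points apart in clone 1, 5.76 in clone 2 and 6.70 in the population, over 13974, 9725 and 10515 pairs. The 2 ends of 1 fragment lay 12.0, 11.6 and 10.3 points apart in the same libraries. The partner reading did not enter the choice of a member.

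Most low ends were low in the partner reading too. For 46 member ends at 65% or less in the losing clone, the median was 44.9% at the member's own end and 54.5% in the neighbour, against 100% in the other clone and 90.9% in the population for the neighbour's reading. Of these 46 partner readings 31 stood at 65% or less and 3 at 90% or more. For 33 ends at 90% or more in the losing clone the partner reading had a median of 100%, with 29 at 90% or more and 1 at 65% or less. Ends at 20% or less numbered 12, and 11 of their partners were at 65% or less, with a median of 0%.

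**Figure D4:**
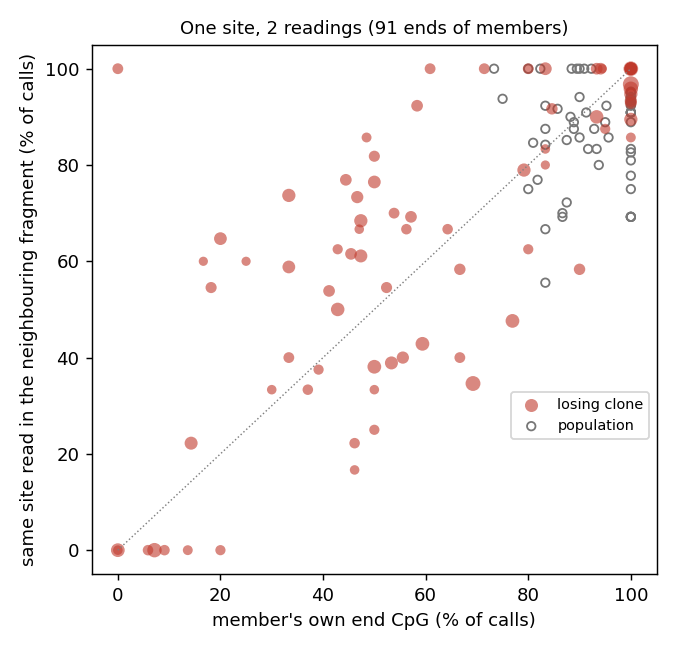
Methylation level of a member's end CpG (x axis, percent of calls) and of the same MspI site read on the other strand in the neighbouring fragment (y axis), for 91 ends of members with at least 5 calls in both readings. Filled points are the losing clone, with size growing with the partner's calls, and open circles the population. Losing-clone points spread along the dotted line of equality down to 0%, and population circles lie towards the upper right.

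Tested as single CpGs, with at least 10 calls in the losing clone and the population, 3 of 22 partners of low ends (13.6%) were called lower than in the population, against 0.458% of all 162981 end CpGs tested in clone 1 and 0.4% of 125556 in clone 2. The partner of the first CpG of fragment 803142 had 0 of 21 calls methylated in clone 1, against 17 of 17 in clone 2 and 16 of 17 in the population (adjusted p = 9.58e-06, Fisher's exact test). The partner of the first CpG of fragment 497135, itself at 1 of 14, had 0 of 24 in clone 1, against 24 of 24 in clone 2 and 9 of 12 in the population (adjusted p = 0.00177, Fisher's exact test). The partner of the first CpG of fragment 540556, itself at 4 of 8, had 8 of 21 in clone 2, against 14 of 14 in clone 1 and 17 of 17 in the population (adjusted p = 0.0152, Fisher's exact test). The readings did not always match. Fragment 468318 had 0 of 15 calls methylated at its first CpG in clone 2, while the neighbour read the same site as methylated on 10 of 10 molecules. In fragment 581299 the last CpG had 14 of 23 calls methylated in clone 2 and its partner 10 of 10. Both examples were picked after their values were seen.

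On single molecules the loss took the form of mixed patterns. Among 262 members with at least 5 losing-clone molecules that showed 2 or more CpGs, 62.5% of 5797 molecules in the losing clone carried both methylated and unmethylated CpGs, 27.0% were wholly methylated and 10.4% wholly unmethylated. In the other clone 11.1% of 5913 molecules were mixed, 88.9% wholly methylated and 0.0507% wholly unmethylated. In the population 15.8% of 5429 were mixed, 84.0% wholly methylated and 0.221% wholly unmethylated. The rule holds the members at 90% or more in both these libraries, which leaves little room for unmethylated molecules there. At least 80% of losing-clone molecules were mixed in 69 of the members, and at most 20% in 16.

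Where several CpGs could be read together, few patterns made up most molecules. In 135 of the 577 members with a window of 2 or more CpGs read together on at least 8 molecules in each library, the 2 commonest patterns covered a median of 92.6% of molecules in the losing clone. In the other clone and the population the median was 100% and 100%, so this was not particular to the losing clone. A window of 2 CpGs allows few patterns, and in the 42 members with a window of 3 or more CpGs the 2 commonest covered 86.2% (89.4% over 20 members low in clone 1 and 80.6% over 22 low in clone 2). For these 42 members it was 100% in the other clone and 92.6% in the population. The commonest pattern with an unmethylated CpG made up 56.9% of 2353 molecules in the losing clone, 2.81% of 2277 in the other clone and 5.92% of 1740 in the population. That pattern was picked as the commonest in the losing clone, which raises its share there. It was seen on no molecule in the other clone in 93 of the 135 members and on none in the population in 76. In 22 members it was carried by at least 80% of losing-clone molecules.

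Named members show how such patterns look, written with ● for a methylated CpG, ○ for an unmethylated one and · for a CpG that was not read. In fragment 1440069, with 5 CpGs, nearly every molecule of clone 2 had lost the same pair of CpGs. The pattern ●○●○· was carried by 22 of 52 molecules and ·○●○● by 18. CpGs 2 and 4 of the fragment had 2 of 51 and 4 of 51 calls methylated in clone 2, against 39 of 44 and 40 of 42 in clone 1 and 18 of 24 and 20 of 22 in the population. CpG 3 between them had 49 of 51 in clone 2, against 40 of 43 in clone 1 and 23 of 23 in the population. The fragment's level was 49.8% in clone 2 (Wilson 95% interval 42.9 to 56.6%), 90.7% in clone 1 and 90.1% in the population.

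Fragment 209581, with 10 CpGs, was all or none. In clone 2 its commonest patterns were ·●●●●●●●●●, ○○○○○○○○○· and ●●●●●●●●●·, on 8 molecules each of 52. Its first CpG had 13 of 27 calls methylated and its last 14 of 22 in clone 2, against 29 of 29 and 13 of 15 in clone 1 and 8 of 9 and 14 of 16 in the population. Its level was 53.5% in clone 2, against 96.6% in clone 1 and 91.9% in the population. Fragment 472232, with 5 CpGs, behaved likewise in clone 1, with 13 molecules ·●●●● and 12 molecules ·○○○○ of 49 and a level of 56.2%, against 97.1% in clone 2 and 92.6% in the population. In fragment 30708 a methylated first CpG stood beside such a block, with ●●●· on 13 and ●○○· on 12 of 64 molecules in clone 1. Its first CpG had 26 of 26 calls methylated in clone 1, and CpG 2 had 33 of 62, against 22 of 22 and 44 of 44 in clone 2 and 17 of 21 and 37 of 38 in the population.

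Some members lost different CpGs on different molecules. In fragment 1320528, with 4 CpGs, clone 1 carried ●○●· on 15 molecules and ●●○· on 10 of 58. CpG 2 had 21 of 51 calls methylated and CpG 3 had 25 of 52 in clone 1, against 30 of 34 and 29 of 30 in clone 2 and 16 of 22 and 23 of 23 in the population. In clone 2, fragment 405338 with its 7 CpGs had 7 molecules ·●●●○●● and 6 ●●●●○●· beside 5 molecules ·○○○●●○ and 4 ○○○○●●· of 42. In these patterns CpG 5 was unmethylated where CpGs 2 to 4 were methylated, and methylated where they were not. CpG 5 had 16 of 34 calls methylated in clone 2, against 31 of 31 in clone 1 and 16 of 18 in the population, and CpG 6 had 39 of 39 in clone 2. Fragments 1320528 and 405338 were singled out after their values were seen.

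**Figure D5:**
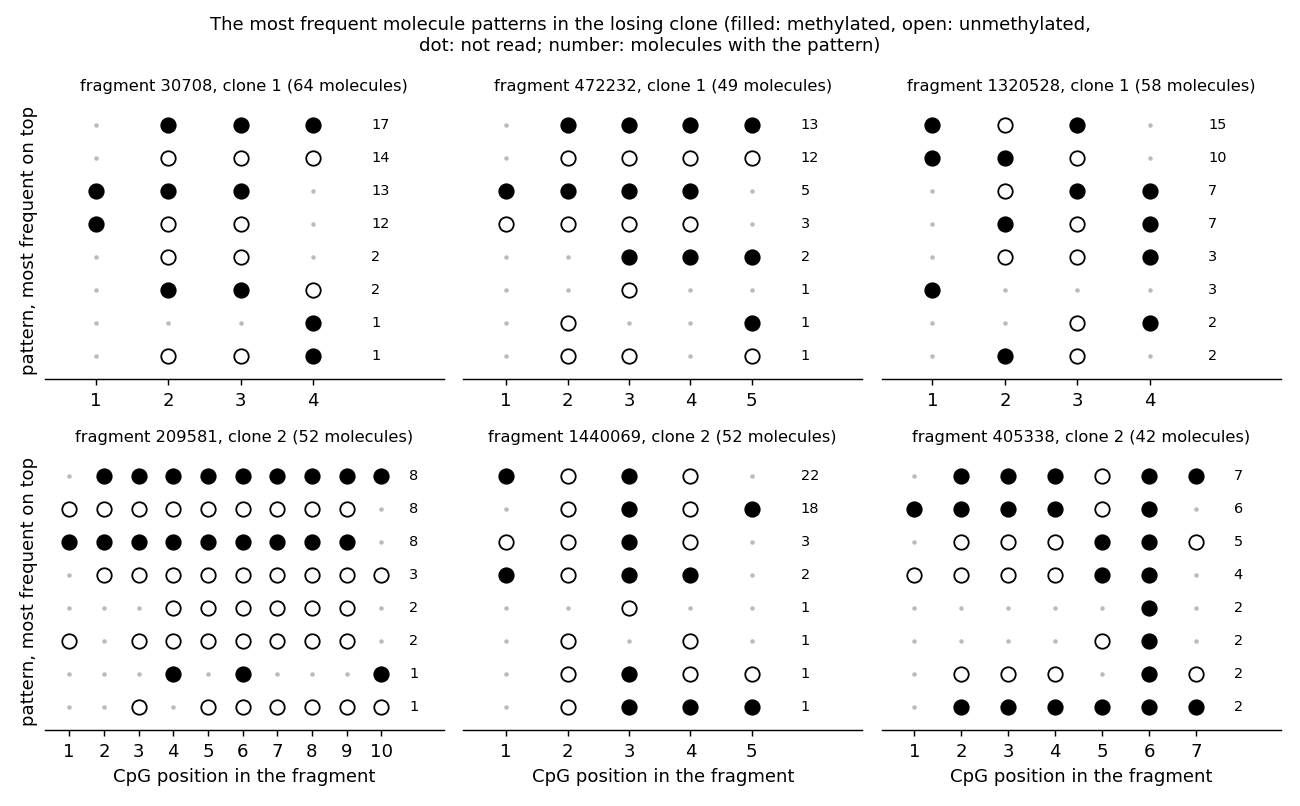
The 8 commonest molecule patterns of 6 members in the losing clone, 1 pattern per row (commonest on top) and 1 CpG position per column. Filled circles are methylated, open circles unmethylated and grey dots unread CpGs, and the number is the count of molecules. Fragments 472232 and 209581 alternate between wholly methylated and wholly unmethylated rows, 1440069 repeats 1 mixed pattern, and 1320528 and 405338 show opposite patterns.

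Other members combined a complete and a partial loss. In fragment 845498 the first CpG had 0 of 24 calls methylated in clone 1 and CpG 3 had 16 of 30, against 18 of 20 and 30 of 30 in clone 2 and 17 of 21 and 31 of 35 in the population. The same arrangement was found in fragment 844123 in clone 1, which had 0 of 24 at the first CpG and 17 of 39 at CpG 3, against 12 of 15 and 22 of 23 in clone 2 and 13 of 15 and 24 of 29 in the population. In fragment 71948, with 10 CpGs, CpGs 1, 6, 9 and 10 had 0 of 15, 1 of 29, 1 of 28 and 0 of 11 calls methylated in clone 2, while CpG 3 had 26 of 26. In clone 1 these 4 CpGs had 10 of 10, 10 of 22, 22 of 23 and 14 of 14, and CpG 3 had 20 of 21. In the population they had 4 of 4, 14 of 15, 13 of 15 and 7 of 11, and CpG 3 had 12 of 15. Fragment 718677, with 9 CpGs, had partial loss only. It changed at one point, with ●●●●○○○○· on 7 and ·●●●○○○○○ on 4 of 35 molecules in clone 2. CpG 4 had 25 of 31 calls methylated in clone 2 and CpG 5 had 13 of 35, against 37 of 43 and 38 of 42 in clone 1 and 23 of 31 and 32 of 34 in the population.

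Pairs of CpGs at intermediate level were linked on molecules. In the losing clone, 236 pairs of CpGs from 89 members each stood at 30 to 70% and were read together on at least 8 molecules. The 2 CpGs were in the same state on a median of 92.1% of molecules, where pairs of those levels with no link would give 50.4%. In 178 pairs at least 80% of molecules had both CpGs in the same state. In 29 pairs at most 20% did, so that one CpG was unmethylated mainly where the other was methylated. With 1 pair taken per member, 51 of 89 were of the first kind, 16 of the second and 22 between. Pairs of 1 fragment share molecules, and the counts are a description.

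CpGs that were lost stood a little lower in the population than CpGs kept beside them. In 305 members with a CpG at 65% or less and a CpG at 80% or more in the losing clone, the low CpGs had a mean level of 32.0% in the losing clone, 95.4% in the other clone and 91.9% in the population. The kept CpGs of the same fragments had 95.0%, 96.9% and 95.9% in these libraries. In the population the low CpGs were below the kept ones in 193 members, equal in 34 and above in 78, with a median difference of -4.50 points (exact binomial 95% interval of the median -5.71 to -3.19). In the other clone they were below in 142, equal in 80 and above in 83, with a median difference of 0 points. Members of 2 CpGs, where both CpGs are ends, had a mean of 92.6% at the low and 96.9% at the kept CpG in the population.

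Methylation next to a member was mostly kept. Neighbours were fragments numbered 1 above or below a member, with at least 10 molecules in each library and no members themselves. For members low in clone 1 (n = 78), clone 1 minus population had a median of -0.77 points, against 0.323 beside all methylated fragments. For members low in clone 2 (n = 70), clone 2 minus population had a median of -2.63 points, against 0.895. In clone 1, 4 of the 78 (5.13%) were called lower than the population by Fisher's exact test, against 0.548% of the neighbours of all methylated fragments. Among these 4, the calls at fragments 497134 and 803141 rest mainly on the CpG shared with the member, as given below. None of the 78 was called higher, a call made for 0.805% of all fragments in clone 1. In clone 2, 1 of 70 (1.43%) was called lower, against 0.291%, and 1 was called higher, against 0.891% of all fragments. Among fragments numbered 2 to 3 away, 2 of 137 were called lower and 1 higher in clone 1, against 0.630% lower beside all methylated fragments, and 1 of 123 was called lower in clone 2, against 0.480%. At least 20 points were lost by 14 of the 78 neighbours 1 away (17.9%) in clone 1, against 2.15% beside all methylated fragments. In clone 2 it was 9 of the 70 (12.9%), against 1.69%. Among those 2 to 3 away it was 5 of the 137 (3.65%) in clone 1, against 2.69%. In clone 2 it was 11 of the 123 (8.94%), against 2.29%.

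Part of the neighbours' loss sat at the site they share with the member. Neighbours lost at least 20 points in 11 of 66 cases (16.7%) in clone 1 and 9 of 69 (13.0%) in clone 2, among those with at least 5 further calls. Beside all other methylated fragments the shares were 1.68% and 1.37%. Without the calls at the shared CpG, 6 of 66 (9.09%) and 8 of 69 (11.6%) of the members' neighbours did so. This compares with 2.58% and 2.20% of the neighbours of all other methylated fragments counted likewise. The mean difference then was -1.77 points in clone 1 and -2.09 points in clone 2, against 0.130 and 0.850 points beside other methylated fragments.

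The called neighbours were few enough to name. Fragment 497134, beside member 497135, had 4 of 28 molecules methylated in clone 1, against 25 of 26 in clone 2 and 19 of 25 in the population (adjusted p = 0.00171, Fisher's exact test). Fragment 803141, beside member 803142, had 19 of 41, against 25 of 29 and 28 of 30 (adjusted p = 0.00512, Fisher's exact test). Fragments 497134 and 803141 hold 2 CpGs each. The CpG shared with the member had 0 of 24 and 0 of 21 calls methylated in clone 1. Their calls thus rest mainly on the site already given as a partner reading. Fragment 998541, beside 998542, had 36 of 50, against 44 of 46 and 34 of 34 (adjusted p = 0.0392, Fisher's exact test). Fragment 1264026, beside 1264025, had 7 of 44, against 14 of 26 and 16 of 22 (adjusted p = 0.00309, Fisher's exact test). In clone 2, fragment 558037, beside 558038, had 11 of 25 molecules methylated, against 23 of 35 in clone 1 and 23 of 23 in the population (adjusted p = 0.00287, Fisher's exact test). Fragment 382434, beside 382433, went the other way, with 20 of 27 in clone 2, against 28 of 32 in clone 1 and 7 of 34 in the population (adjusted p = 0.00645, Fisher's exact test). No 2 members had consecutive numbers, and of the 2 pairs of members 2 numbers apart neither shared a losing clone.

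The loss was smaller on molecules that had not chosen the fragment. When every other molecule of each strand was used to apply the rule, 198 fragments were chosen as low in clone 1 and 174 as low in clone 2. On the molecules left out, clone 1 stood at a median of 65.1% and clone 2 at 65.5% over their own fragments, and on the molecules that chose them at 57.9% and 60%. The left-out molecules gave 95.1% and 95.7% in the other clone and 90.0% and 90.9% in the population. The losing clone was below the population in 188 of 198 and 166 of 174 fragments on the left-out molecules. It stood at 65% or less in 98 and 85 of them. By Fisher's exact test on the left-out molecules, 10 of 198 (5.05%) were called lower in clone 1, against 0.0373% of all 193125 fragments tested, and 3 of 174 (1.72%) in clone 2, against 0.0201% of 159232.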

How the data were processed

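DNA methylation was read in 3 libraries: clone 1, clone 2 and the population. The deposited files have no header. From their values, each line is 1 molecule: a fragment number, a strand, a tag of 6 bases and a string with a methylated, unmethylated or missing call per CpG. The last columns the authors deposited are an unnormalized count of reads behind the molecule and an integer whose meaning is not stated. Bismark and build mm9 are named, per the submitters' processing notes; its version, any filters and how each clone's 2 replicates were pooled are not given in the sources used. Clone 1, clone 2 and the population listed 11969176, 8977287 and 8463942 molecules from 16036644, 15027960 and 17003711 reads.

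Levels are shares of calls, with Wilson 95% intervals that cover counting error only. Fisher's exact tests with Benjamini-Hochberg adjustment ran over the whole table (Python 3.11.15, numpy 2.4.6, pandas 2.3.3, numba 0.67.0) and were tested on simulated data. A CpG or end needed 5 calls, and 10 in tests of single CpGs. Named fragments were those with the widest difference or the most molecules at 40 to 60%, among members with at least 20 molecules per library and 4 CpGs, those with the most CpGs at any depth, and those at the thresholds; the text gives some of them, and the exceptions it names. Members and lists were chosen with earlier results of these data known. Molecule minimum, thresholds, read support, the definition of the level, fragment ends, depth and strand were varied.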

Additional observations from a re-analysis of the deposited data

How the results depend on the processing

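Of 161 values under other settings, 84 stayed within 1.5 times the count given or within the exact 95% interval of the median, and 77 moved. A change of sign was not scored apart from a move. Values are given for clone 1, then clone 2. Dropping molecules whose last value is above 0, strands with over 25 molecules, or rebuilt far ends (an alternative added after seeing the data) moved no count or losing-clone level so far. With at least 20 molecules per library 108 and 103 fragments were members, and 80 of the 108 were called lower in clone 1 than in the population. With at least 30 there were 31 and 21, 27 and 20 called, and in clone 2 the median level was 60.5% and the median share of mixed molecules 59.1%. Thresholds of 95% and 50% left 21 and 13 members at medians of 47.1% and 43.8%, 15 and 9 called. Thresholds of 85% and 70% gave 1165 and 939 at 64.3% and 63.6%, 331 and 233 called. Molecules with at least 2 reads gave 118 and 106 members, 5 and 6 called. With the level taken as the share of mostly methylated molecules there were 601 and 528 at 56.2% and 57.1%, 55.6% and 53.8% mixed, 232 and 157 called. Without the first and last CpG, which removes fragments of 2 CpGs, medians were 53.8% and 55%, with 251 and 176 called. Thinned to 10 molecules, 607 and 471 fragments passed, a median of 70% of molecules was mixed in clone 1, and 0 and 0 were called, fewer molecules being the alternative's own construction. Molecules with at least 4 observed CpGs were 76.5% and 87.5% mixed.

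Fragments chosen on every other molecule had losing-clone medians of 65.1% and 65.5% on the rest (added after seeing the data). Fragments chosen on the plus strand stood at 81.5% and 86.5% on the minus strand, and those chosen on the minus strand at 83.0% and 87.5% on the plus strand, where other CpGs are read. Neighbours 2 to 3 away from members low in clone 2 differed by 1.46 points, against -2.63 points for those 1 away, so the sign changed. Counted in reads, the log2 coverage of the losing over the other clone was -0.0614 and -0.131. In molecules it was 0.234 and -0.453, so the sign changed in clone 1. For the other moved values the cause was not tested. Leaving out a replicate could not be run, and no paired analysis was possible because the 2 replicates of each clone share 1 file. A median of about 20 to 25 molecules per member leaves wide intervals on any single fragment.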

Other observations

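Members low in a clone were read less deeply there than all methylated fragments. The median was 25 against 32 molecules in clone 1 and 20 against 24 in clone 2. They were also read less deeply in the other clone. Members low in clone 1 had a median of 21 against 24 in clone 2, and members low in clone 2 had 27 against 32 in clone 1. The median log2 ratio of molecules, clone 1 over clone 2, was 0.23 for members low in clone 1 and 0.32 for all 75936 methylated fragments. Clone 2 over clone 1, it was -0.45 for members low in clone 2 and -0.32 for all. Molecules with at most 50% of CpGs methylated, mixed ones included, had read support like that of the others. In clone 1, 27.9% of 4347 molecules with at most 50% of CpGs methylated and 27.3% of 3943 others had at least 2 reads, for members low in clone 1. In clone 2 it was 42.8% of 3163 and 41.0% of 2916, for members low in clone 2. The whole number of unstated meaning was above 0 in 2.45% of the molecules of members in clone 1, against 2.50% over all methylated fragments, and in 3.08% against 3.09% in clone 2.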
